A study of Danio rerio with 26 samples.

Results

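The expression of 10 genes of neurogenic progenitors and newborn neurons was followed through the adult zebrafish telencephalon after injury. The genes were chosen by symbol as listed in the platform's probe annotation, and where a gene had several probe sets, the one brightest on average across the 26 arrays stood for it. All 10 were found among the 19260 genes measured. They were the proneural factors ascl1a and neurog1, the zinc-finger factors insm1a and insm1b, the SoxB1 factor sox1b, the SoxC factors sox4a, sox11a and sox11b, the neuronal beta-tubulin tubb5 and the neuronal RNA-binding protein elavl3.

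Adult fish of the Tg(gfap:gfp)mi2001 line, aged 3 to 6 months, were used for every group. In this line green fluorescent protein is driven by the promoter of gfap, a gene of radial glia, and unlesioned fish carry the transgene too. Total RNA came from the dorsal parenchyma (3 arrays at day 2 after the lesion, 3 at day 7 and 2 without a lesion), from the dorsal subventricular zone (SVZ; 3, 3 and 3 arrays) and from the medial neurogenic zone, here the medial zone (4, 3 and 2 arrays). The labels name a stab wound as the lesion, whereas the treatment text describes injections into the brain ventricle, and it is not stated whether control fish received any operation. The arrays are described as biological replicates without the number of fish in each, so p-values measure the spread between these arrays.

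In the adult zebrafish telencephalon, radial glia line the ventricular surface and act as neural stem cells. They produce intermediate progenitors that switch on proneural basic helix-loop-helix factors, pass through a phase of Insm1 and SoxC expression, and then switch on cytoskeletal and RNA-binding proteins of the young neuron. The parenchyma below the ventricular layer holds mostly neurons and few dividing progenitors, and after a wound new neurons made at the ventricular surface can move into it.

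The values are log2 intensities that the authors produced with RMA, so a difference of 1 is a doubling of the fluorescence signal. A probe set's level can be set against itself on other arrays but not against another gene's probe set. A gene was called when its Benjamini-Hochberg adjusted p, from limma over all 19260 genes of a comparison, was under 0.05. The array medians over all 75212 probe sets lay between 3.01 and 3.21, with a median of 3.09 over the whole table. The means of 9 of the 10 genes over all arrays lay above it, and neurog1, at 2.57, lay below. The first 2 principal components of 13921 genes held 31.1% and 19.4% of the variance. The median residual SD was 0.326 in the parenchyma, 0.255 in the SVZ and 0.285 in the medial zone. The number of arrays limited the precision, and arrays of bulk tissue cannot tell fewer cells of a type from less RNA per cell.

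Without a lesion, many of the genes were higher in the ventricular tissues than in the parenchyma. In the medial zone 8 of the 10 genes were higher than in the parenchyma, when 7.28% of all genes were. In the SVZ 5 of the 10 were higher than in the parenchyma, against 4.89% of all genes. The medial zone exceeded the SVZ for 2 of the 10, insm1b and sox11a, against 2.37% of all genes. None of the 10 was called lower in any of these comparisons. The median difference of the 10 genes was 2.1 for medial zone against parenchyma, 1.21 for SVZ against parenchyma and 0.76 for medial zone against SVZ, on the log2 scale, whereas the median of all genes was 0.023, -0.000 and 0.022. The groups did not overlap, with the higher level in the tissue named first, for 9, 7 and 5 of the 10 genes, against 27.5%, 19.4% and 17.9% of all genes. For 2 of the 10, neurog1 and tubb5, the medial zone arrays lay below all SVZ arrays, against 14.2% of all genes. The 10 genes were chosen with earlier results of these data known, so such counts, here and below, describe the genes and are no test. These 3 comparisons share arrays, and the 2 unlesioned parenchyma arrays also serve as the control of the lesion comparisons there. The array median subtracted, here and below, was that of the 19260 genes. Subtracting it moved the median of all genes to -0.25 for medial zone against parenchyma and -0.19 for SVZ against parenchyma. The called genes turned from 69.1% to 28.7% higher and from 73% to 37.9% higher. For medial zone against SVZ this share went from 57% to 46.2%, and with repeated quantile normalization the shares were 51.6%, 58.1% and 51.3%. Under the subtraction 7 and 3 of the 10 genes were still higher and none was lower.

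The gene ascl1a encodes a proneural factor that drives progenitors toward a neuronal fate and is required for glial reprogramming in the injured zebrafish retina. Its level on the unlesioned arrays was 4.96 and 5.65 in the parenchyma, 6.74, 7.19 and 6.64 in the SVZ, and 7.77 on both arrays of the medial zone. The 3 regions did not overlap. The SVZ exceeded the parenchyma by 1.56 (SE 0.29, 2.94-fold, adjusted p = 0.00115) and the medial zone exceeded it by 2.47 (SE 0.32, 5.53-fold, adjusted p = 1.2e-05). The SVZ call was lost without parenchyma replicate 1, with a difference of 1.21. Between medial zone and SVZ the difference was 0.91 (95% interval 0.31 to 1.51) and did not pass (adjusted p = 0.0855).

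The second proneural gene, neurog1, lay at the low end of the intensity range on every array, between 2.17 and 2.96. Only 9.7% of genes had a lower mean. The largest difference between 2 groups of 1 region or of 1 time was 0.31, between day 7 and the unlesioned arrays of the medial zone (95% interval -0.13 to 0.74). At such intensities the probe set gives little information on whether the gene differed between groups.

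The paralogs insm1a and insm1b encode SNAG-domain zinc-finger repressors, known from mouse to act in intermediate progenitors as they leave the cell cycle. The unlesioned arrays gave insm1b levels of 5.56 and 6.19 in the parenchyma, 6.85, 6.72 and 6.98 in the SVZ, and 8.51 and 8.16 in the medial zone. These groups did not overlap either. The medial zone was higher than the parenchyma by 2.46 (SE 0.32, 5.51-fold, adjusted p = 1.6e-05) and higher than the SVZ by 1.49 (SE 0.30, 2.80-fold, adjusted p = 0.00310), a call lost without medial zone replicate 1 (1.31). The difference between SVZ and parenchyma, 0.98 (SE 0.30), passed narrowly (adjusted p = 0.0483) and was lost without any 1 of 4 of the 5 arrays and under 4 of 8 other settings. For insm1a the levels were 3.15 and 3.33 in the parenchyma, 4.34, 6.15 and 3.59 in the SVZ, and 5.91 and 6.13 in the medial zone. One SVZ array reached the medial zone's level, and the others stood clearly below it. The medial zone was higher than the parenchyma by 2.78 (SE 0.61, 6.87-fold, adjusted p = 0.00359). The SVZ differed by 1.45 (95% interval 0.30 to 2.60) from the parenchyma and did not pass.

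The gene sox1b belongs to the SoxB1 group, whose members maintain neural progenitors. Without a lesion its levels were 6.24 and 6.38 in the parenchyma, 6.57, 6.72 and 6.90 in the SVZ, and 8.54 and 7.57 in the medial zone. The medial zone was higher than the parenchyma by 1.75 (SE 0.45, 3.36-fold, adjusted p = 0.0135), and this call was lost without medial zone replicate 1 (1.26) or parenchyma replicate 1. The SVZ and the parenchyma differed by 0.42, with a 95% interval from -0.43 to 1.27.

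SoxC factors, known from mouse and chick, switch on genes of the young neuron such as neuronal tubulin. Of the 3, sox11a showed the largest regional differences. The unlesioned arrays read 5.04 and 4.06 in the parenchyma, 6.64, 6.84 and 6.45 in the SVZ, and 8.39 and 7.98 in the medial zone. No region overlapped another. The SVZ was higher than the parenchyma by 2.1 (SE 0.27, 4.28-fold, adjusted p = 1.5e-05), and the medial zone was higher than the parenchyma by 3.64 (SE 0.30, 12.5-fold, adjusted p = 2.9e-08) and than the SVZ by 1.54 (SE 0.27, 2.92-fold, adjusted p = 0.001).

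Its paralog sox11b had a flatter pattern. Levels were 6.09 and 6.24 in the parenchyma, 8.01, 7.28 and 7.55 in the SVZ, and 7.44 and 7.89 in the medial zone, so that the 2 ventricular tissues overlapped each other and lay above the parenchyma. The differences from the parenchyma were 1.44 (SE 0.44, adjusted p = 0.0469) in the SVZ and 1.5 (SE 0.48, adjusted p = 0.0460) in the medial zone. Each call was lost without any 1 of its arrays, and under 4 (SVZ) and 3 (medial zone) of 8 other settings. Array weights, repeated quantile normalization and array median subtraction were among these settings for both. Between medial zone and SVZ the difference was 0.05, with a 95% interval from -0.85 to 0.95. For sox4a the levels were 9.23 and 9.38 in the parenchyma, 9.55, 9.37 and 9.34 in the SVZ, and 9.54 and 9.43 in the medial zone, with no difference called (0.18 for medial zone against parenchyma, 95% interval -0.26 to 0.62).

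The products of young neurons followed 2 patterns. The gene tubb5, whose promoter is used in zebrafish to mark neurons, was at 8.11 and 8.65 in the unlesioned parenchyma, at 11.62, 11.11 and 11.21 in the SVZ, and at 10.85 and 11.07 in the medial zone. The parenchyma stood apart from both ventricular tissues. It was exceeded by the SVZ by 2.93 (SE 0.22, 7.64-fold, adjusted p = 3.9e-09) and by the medial zone by 2.58 (SE 0.24, 5.98-fold, adjusted p = 1.6e-07). The other tubb5 probe set gave 2.98 and 3.20. Both medial zone arrays lay below all SVZ arrays, with a difference of -0.35 that was not called, whereas the other probe set gave 0.23. For elavl3, an early pan-neuronal gene, the levels were 9.40 and 9.92 in the parenchyma, 10.45, 9.86 and 10.33 in the SVZ, and 10.78 and 10.84 in the medial zone. The medial zone was higher than the parenchyma by 1.15 (SE 0.23, 2.22-fold, adjusted p = 0.00156), a call lost when the 2 groups were fitted alone, and the SVZ overlapped the parenchyma (0.55, 95% interval 0.12 to 0.99, adjusted p = 0.127). By the other elavl3 probe set the difference between medial zone and parenchyma was 0.89, also called.

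**Figure D1:**
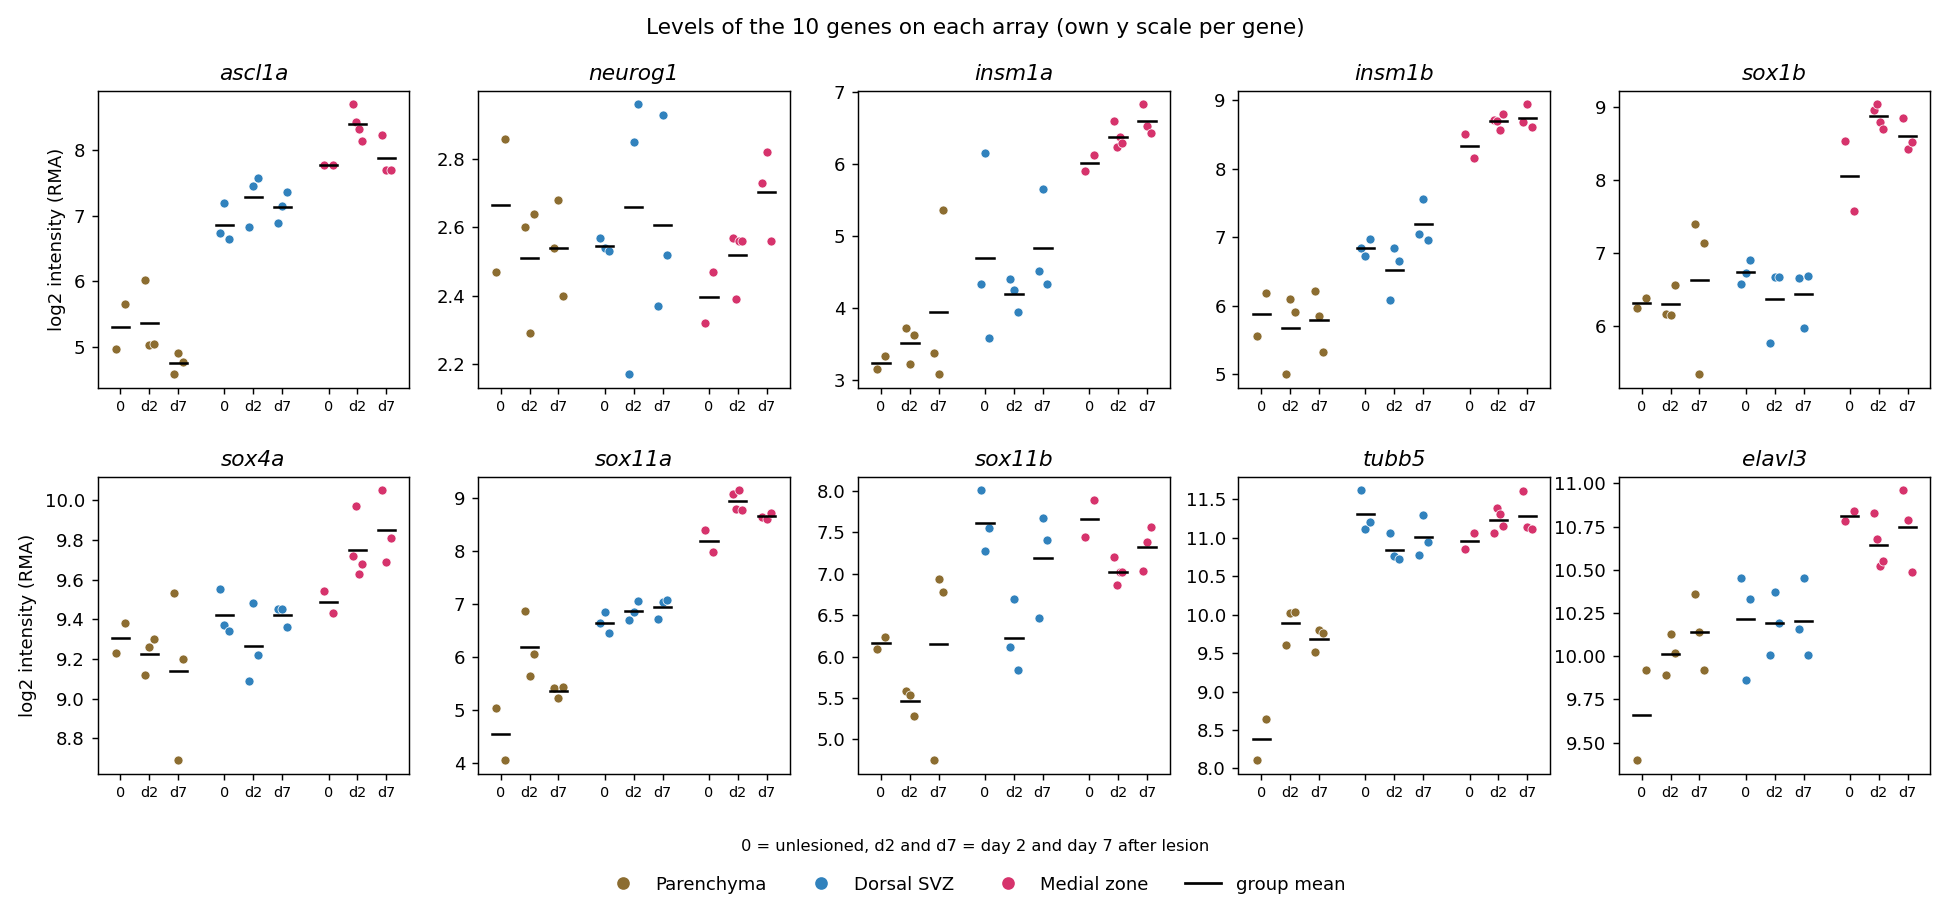
Level of each of the 10 genes on each of the 26 arrays, as log2 RMA intensity with its own y scale for each gene, in the unlesioned (0), day 2 (d2) and day 7 (d7) groups of the 3 regions; bars are group means. On the probe sets plotted, every medial zone array lay above every array of the other 2 regions for ascl1a, insm1b, sox1b, sox11a and elavl3. The neurog1 levels stayed between 2.17 and 2.96.

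The regions were also compared over all times, with the 3 times given equal weight. These comparisons were added after the data had been seen. The medial zone was higher than the parenchyma for 9 of the 10 genes (20.6% of all genes were), the SVZ was higher than the parenchyma for 6 (11.9%) and the medial zone was higher than the SVZ for 7 (11.3%). All medial zone arrays lay above all parenchyma arrays for 7 of the 10 genes, namely ascl1a, insm1a, insm1b, sox1b, sox11a, tubb5 and elavl3, against 4.77% of all genes. Against all SVZ arrays this held for 5 (ascl1a, insm1b, sox1b, sox11a and elavl3; 2.60% of all genes), and all SVZ arrays lay above all parenchyma arrays for ascl1a and tubb5 (3.23%). By the other elavl3 probe set the medial zone arrays, from 10.09 upward, overlapped those of the SVZ (up to 10.38) and the parenchyma (up to 10.22). Its medial zone differences were 0.61 against the parenchyma and 0.32 against the SVZ, both called.

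With the array median subtracted the share of higher calls among all called genes went from 60.6% to 22.1%, from 62% to 23.9% and from 57.8% to 42.8% in these 3 comparisons, and 8, 6 and 6 of the 10 genes were higher. With repeated quantile normalization the shares were 48.1%, 49% and 50.8%, and 9, 6 and 7 of the 10 were higher. The order of the regions differed from gene to gene. For ascl1a, insm1a, insm1b and sox11a each of the 3 regions differed from the next: ascl1a was higher in the SVZ than in the parenchyma by 1.96 (SE 0.16) and higher in the medial zone than in the SVZ by 0.92 (SE 0.15), and sox11a by 1.45 (SE 0.15) and then by 1.78 (SE 0.14). The step for insm1a between SVZ and parenchyma, 1.01 (SE 0.30), was lost without unlesioned parenchyma replicate 1 and when the groups compared were fitted alone. For sox1b the SVZ and the parenchyma were close (0.11, 95% interval -0.35 to 0.56), and the medial zone was higher than the SVZ by 2.00 (SE 0.22, adjusted p = 2.3e-07).

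For tubb5 and sox11b it was the parenchyma that stood apart. The SVZ was higher than the parenchyma by 1.74 (SE 0.12, adjusted p = 8.0e-11) for tubb5 and by 1.08 (SE 0.23, adjusted p = 0.00160) for sox11b. The medial zone and the SVZ differed by 0.10 (95% interval -0.14 to 0.34) for tubb5, where the other probe set gave 0.44 and was called, and by 0.33 (95% interval -0.14 to 0.81) for sox11b. The smallest called differences were those of sox4a, 0.47 (SE 0.11) for medial zone against parenchyma and 0.33 (SE 0.10) for medial zone against SVZ. Both calls were lost when the array median was subtracted (0.23 and 0.25). The call against the SVZ was also lost without any 1 of 3 of the 18 arrays. For neurog1 the medial zone and the parenchyma differed by -0.03 (95% interval -0.27 to 0.20), and by -0.28 when the array median was subtracted, which was called lower.

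**Figure D2:**
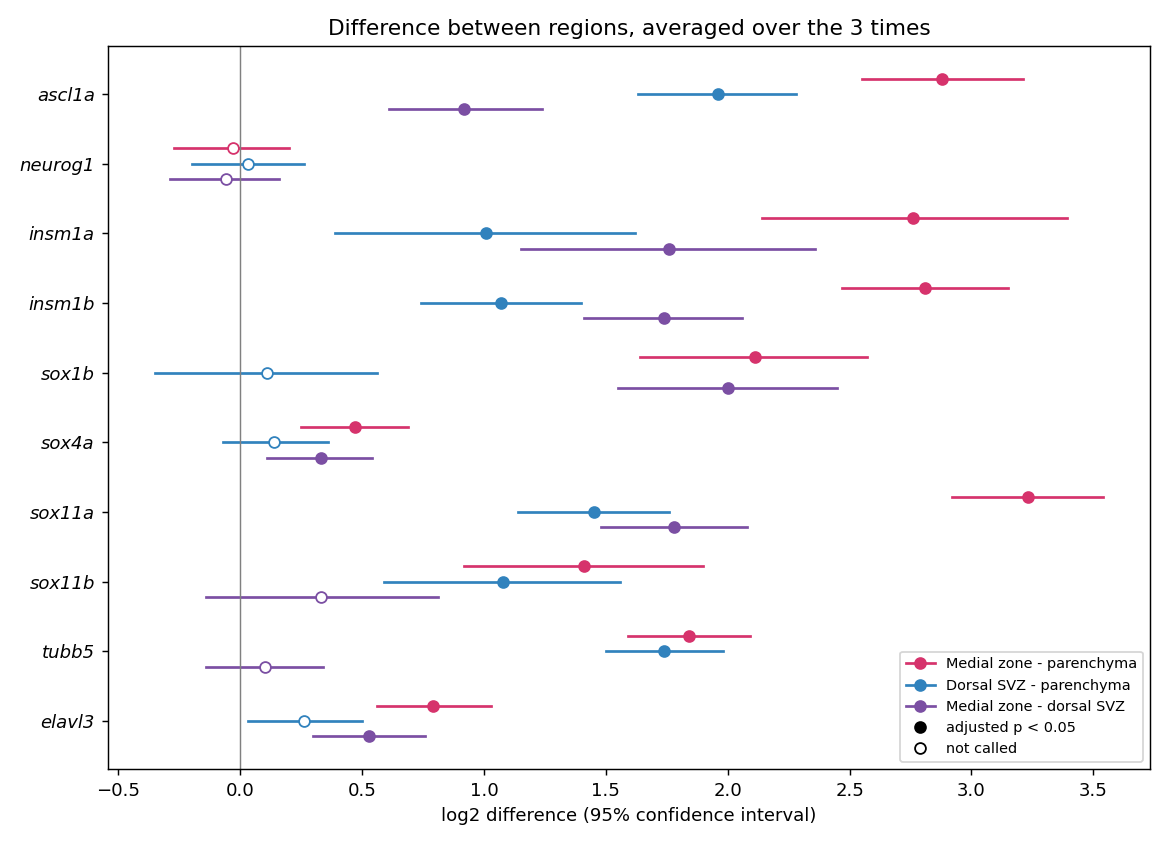
Difference in level of each of the 10 genes between regions, averaged over the 3 times, on the log2 scale with 95% confidence intervals from limma; filled points were called. The differences of medial zone minus parenchyma run from -0.03 for neurog1 to 3.23 for sox11a, and 9 of 10 were called.

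The tissues were checked against markers of other cells. Of 16 radial glia genes measured, 9 were higher and 1 was lower in the unlesioned SVZ than in the parenchyma. The shares of all genes were 4.89% and 1.81%. In the unlesioned medial zone 9 were higher than in the parenchyma, against 7.28% of all genes. List means on the arrays were 8.51 to 8.66 in the SVZ, 8.41 to 8.63 in the medial zone and 6.94 in the parenchyma. The radial glia genes fabp7a and s100b averaged 11.41 and 10.38 in the unlesioned SVZ and 9.58 and 7.74 in the parenchyma, but gfap itself was at 7.30 in the SVZ and 7.63 in the parenchyma. The brain aromatase gene cyp19a1b, a radial glia marker in teleost fish, was lower in the SVZ (9.35) than in the parenchyma (10.73) by limma (-1.38, adjusted p = 0.00336), and stood at 11.00 in the medial zone. Of 16 genes of pallial and subpallial territories, 11 were higher in the medial zone than in the SVZ (median difference 2.05). The forebrain patterning genes dlx2a (9.65 against 4.29) and lhx6a (7.67 against 3.84), which mark the subpallium, were among them. The share of all genes higher in that comparison was 2.37% without a lesion. The pallial genes emx3 and emx1 of the list stood at 7.50 and 4.38 in the unlesioned medial zone and at 7.74 and 3.08 in the SVZ. Cell cycle genes had list means of 4.68 to 4.74 in the medial zone, 3.83 to 4.17 in the SVZ and 3.83 to 3.85 in the parenchyma. The part of these differences in the regional levels of the 10 genes was not tested.

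Region accounted for most of the spread of each gene except sox11b and neurog1. The share of the sum of squares over the 26 arrays that lay between regions was 92.4% for insm1b, 91.5% for ascl1a, 88.3% for sox11a, 82.9% for sox1b, 78.2% for tubb5, 77.8% for insm1a, 68.8% for elavl3, 57.2% for sox4a and 48.6% for sox11b. It was 1.32% for neurog1, for which 81.2% lay between arrays of the same group. The median share over 13921 genes with a mean above the table median was 26%. The share between times within regions was largest for sox11b, at 24.9%, against a median of 18.2% over those genes. It was 17.5% for neurog1, 17.3% for tubb5, 11.9% for sox4a, 9.03% for elavl3 and 8.35% for sox11a. The other genes lay between 2.44% and 4.06%.

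**Figure D3:**
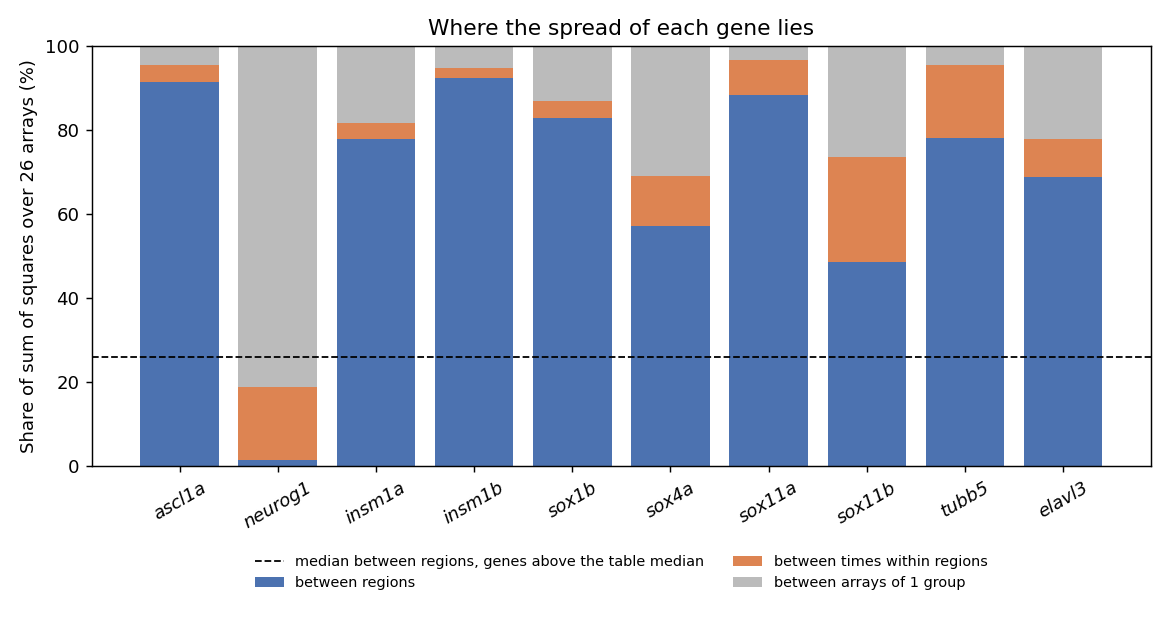
Share of each gene's sum of squares over the 26 arrays, in percent, that lay between regions, between times within regions and between arrays of the same group; the dashed line is the median share between regions over 13921 genes, 26%. The bar between regions exceeds the line for 9 of the 10 genes, and the bar between times is largest for sox11b.

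Within single regions the lesion changed few of these genes, and each call was in the parenchyma. At day 2 after the lesion 2 of the 10 genes, sox11a and tubb5, had risen in the parenchyma, against 1.70% of all genes, and none had fallen. At day 7 tubb5 alone was higher, against 0.0675% of all genes. Of all genes called at day 2, 83.7% were higher, and 65.2% with the array median subtracted, which kept both calls. The median change of the 10 genes was 0.02 at day 2 and 0.15 at day 7 on the log2 scale, with 5 of 10 above 0 each time, against 49.5% and 51.6% of all genes. All lesioned arrays lay above both unlesioned ones for sox11a and tubb5 at each time, as for 12.8% of all genes at day 2 and 11.7% at day 7.

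The parenchyma arrays read 5.04 and 4.06 for sox11a without a lesion, 6.86, 5.65 and 6.06 at day 2, and 5.41, 5.23 and 5.44 at day 7. The 3 times did not overlap, with day 2 highest and the unlesioned arrays lowest. The SD was 0.69 without a lesion, 0.61 at day 2 and 0.11 at day 7. The residual SD of sox11a was 0.50 in the parenchyma, against 0.19 in the SVZ and 0.18 in the medial zone. The SE of limma pools all 9 groups, so the parenchyma arrays varied more for sox11a than that SE assumes. At day 2 sox11a was higher by 1.64 (SE 0.27, 3.12-fold, adjusted p = 8.8e-04). The call was lost without unlesioned replicate 2, the array at 4.06, when the difference was 1.15, and when the 2 groups were fitted without the other 7. The difference at day 7 was 0.81 (95% interval 0.24 to 1.38) and did not pass (adjusted p = 0.249). From day 2 to day 7 the difference was -0.83 (95% interval -1.34 to -0.32, adjusted p = 0.133). No member was called between these days, against 1.15% of all genes, and the day 7 arrays lay below all day 2 arrays for sox11a and ascl1a (6.23% of all genes). Of the day 2 parenchyma arrays, 1 reached the sox11a level of the unlesioned SVZ, and the others lay below it.

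For tubb5 the parenchyma arrays read 8.11 and 8.65 without a lesion, 9.61, 10.02 and 10.03 at day 2, and 9.51, 9.80 and 9.76 at day 7. Every lesioned array lay above both unlesioned ones, and days 2 and 7 overlapped. The rise was 1.51 (SE 0.22, 2.84-fold, adjusted p = 1.9e-04) at day 2, with 1.53 by the other probe set. It was 1.31 (SE 0.22, 2.48-fold, adjusted p = 0.0149) at day 7, with 1.14 by the other probe set, which was not called. The day 7 call was also lost without unlesioned replicate 1 (1.04) and with array weights, and both calls were lost when the groups compared were fitted alone. The lesioned parenchyma stayed below all 9 SVZ arrays, of which the lowest was 10.72.

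The other members gave no call in the parenchyma. The largest day 2 difference among them was that of sox11b, -0.70 (95% interval -1.60 to 0.20), with arrays of 6.09 and 6.24 before the lesion and 5.58, 5.53 and 5.28 after it. The day 7 arrays of sox11b read 4.75, 6.94 and 6.78 and spanned all other parenchyma values. For ascl1a the levels were 6.02, 5.02 and 5.04 at day 2 and 4.58, 4.90 and 4.76 at day 7. The day 7 arrays lay below both unlesioned ones, as for 9.98% of all genes, at -0.55 (95% interval -1.15 to 0.05), without a call. For elavl3 the difference was 0.36 (95% interval -0.08 to 0.79) at day 2 and 0.48 (95% interval 0.05 to 0.91) at day 7, both short of the threshold.

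Some lists of marker genes also changed in level in the same tissue. Of 24 microglia and macrophage genes, 23 were higher in the parenchyma at day 2, and the list mean on each array went from 4.88 and 4.90 without a lesion to between 7.26 and 8.27 at day 2 and between 5.10 and 6.14 at day 7. The list mean of cell cycle genes was 3.83 to 3.85 without a lesion and 4.12 to 4.71 at day 2. Those of mature neurons (7.44 to 7.71, then 7.34 to 7.71) and radial glia (6.94, then 6.81 to 7.33) overlapped between the 2 groups. At day 7, the time of the second tubb5 call, the list mean of oligodendrocyte genes was 5.71 to 6.13 on the parenchyma arrays, against 5.26 without a lesion. That of the territory genes was 5.08 to 5.47, against 4.56 to 4.67, and lhx6a was the 1 gene of this list called there (1.79, adjusted p = 0.0497). Without the 2 arrays of lowest quality weight, day 2 replicate 1 and day 7 replicate 3, the calls of sox11a and tubb5 at day 2 and of tubb5 at day 7 held. The part of microglia and of these other lists in the rise of sox11a and tubb5 was not tested.

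In the dorsal SVZ none of the 10 genes was called at day 2, when 0.270% of all genes were, or at day 7, when no gene of the 19260 was (858 or 4.45% had an unadjusted p under 0.05, none of the 10 among them). The levels of tubb5 were 11.62, 11.11 and 11.21 without a lesion, 11.06, 10.76 and 10.72 at day 2, and 10.78, 11.30 and 10.95 at day 7. All 3 day 2 arrays lay below the unlesioned ones, as they did for sox11b (6.09% of all genes), and the tubb5 difference was -0.47 (95% interval -0.87 to -0.06, adjusted p = 0.623). By the other tubb5 probe set it was -0.19, and the day 2 arrays (9.53 to 9.85) overlapped the unlesioned ones (9.71 to 10.35). The tubb5 differences at day 2 had opposite signs in the 2 dorsal tissues. The difference between them was -1.97 (SE 0.29, adjusted p = 0.0114), as 1 of 10 genes called in that comparison, 0.0519% of all. By the other probe set it was -1.72 and was not called, and it was also lost without parenchyma day 2 replicate 3, without unlesioned parenchyma replicate 1 and when the 4 groups were fitted alone. The day 2 change of tubb5 in the medial zone, 0.27, differed from that in the parenchyma by -1.24 (95% interval -1.87 to -0.61) without a call, in a comparison that called 0.0104% of all genes. At day 7 the difference between SVZ and parenchyma was -1.61 for tubb5 (adjusted p = 0.0967), and no gene was called (7.11% had an unadjusted p under 0.05).

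The levels of sox11a in the SVZ were 6.69, 6.85 and 7.05 at day 2 and 6.72, 7.03 and 7.07 at day 7, overlapping the unlesioned 6.45 to 6.84. The day 2 change was 0.22 (95% interval -0.29 to 0.73). The difference from the change in the parenchyma was -1.42 (95% interval -2.19 to -0.66) and did not pass (adjusted p = 0.224). For ascl1a the SVZ arrays read 6.83, 7.46 and 7.58 at day 2 and 6.89, 7.15 and 7.37 at day 7, and the changes were 0.43 (95% interval -0.11 to 0.97) and 0.28 (95% interval -0.26 to 0.81). The insm1b arrays at day 2, at 6.08, 6.84 and 6.65, lay below those at day 7, at 7.05, 7.56 and 6.96, with a difference of 0.67 (95% interval 0.12 to 1.22, adjusted p = 0.958). This separation, with day 7 higher, was seen for 4.58% of all genes, and 0.0519% were called.

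In the medial zone none of the 10 was called at day 2, when 0.493% of all genes were, or at day 7, when none of the 19260 was (784 or 4.07% had an unadjusted p under 0.05, none of the 10 among them). The arrays nevertheless separated for several genes. All 4 day 2 arrays lay above both unlesioned arrays for 6 of the 10 genes, namely ascl1a, insm1a, insm1b, sox1b, sox4a and sox11a, against 8.30% of all genes. At day 7 this held for 6, namely neurog1, insm1a, insm1b, sox4a, sox11a and tubb5, against 9.33%. The median change of the 10 was 0.31 at day 2 and 0.34 at day 7, with 8 of 10 above 0 each time (49.1% and 50.5% of all genes), while the median of all genes was -0.006 and 0.003. The day 2 and day 7 comparisons share the same 2 unlesioned arrays.

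The largest of these were sox1b and sox11a. The medial zone arrays of sox1b read 8.54 and 7.57 without a lesion, 8.96, 9.04, 8.80 and 8.70 at day 2, and 8.85, 8.43 and 8.53 at day 7, and the day 2 difference was 0.82 (95% interval 0.01 to 1.63, adjusted p = 0.589). Those of sox11a read 8.39 and 7.98 without a lesion, 9.07, 8.79, 9.14 and 8.77 at day 2, and 8.64, 8.60 and 8.72 at day 7. Its 3 times did not overlap and ran in the same order as in the parenchyma, with day 2 highest, and the day 2 difference was 0.75 (95% interval 0.22 to 1.29, adjusted p = 0.312). For ascl1a the arrays read 8.70, 8.44, 8.33 and 8.15 at day 2 and 8.24, 7.70 and 7.70 at day 7, against 7.77 and 7.77, and the day 2 difference was 0.63 (95% interval 0.06 to 1.2, adjusted p = 0.522). From day 2 to day 7 ascl1a differed by -0.52 (95% interval -1.02 to -0.02), and none of the 10 was called, against 0.421% of all genes. The cell cycle list in this tissue went from 4.68 to 4.74 without a lesion to between 5.64 and 6.04 at day 2. The microglia list there went from 4.66 and 4.85 to between 5.98 and 6.53, with 14 of 24 genes called higher. The part of either list in these differences was not tested.

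**Figure D4:**
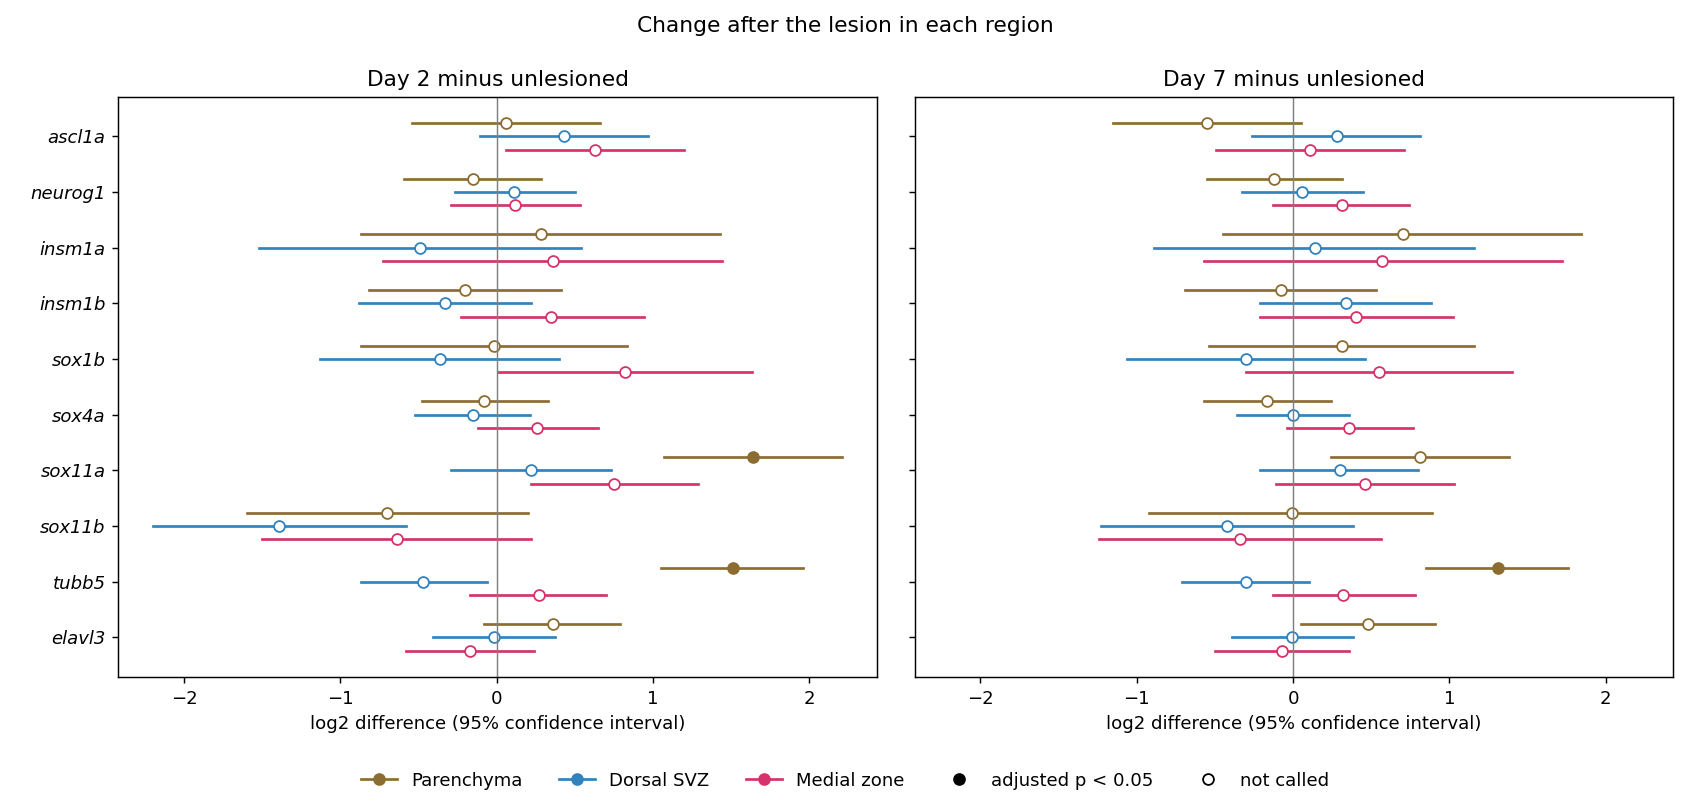
Change of each of the 10 genes at day 2 and at day 7 against the unlesioned arrays of the same region, on the log2 scale with 95% confidence intervals from limma; filled points were called. The called points are sox11a (1.64) and tubb5 (1.51) at day 2 and tubb5 (1.31) at day 7, all in the parenchyma, and the 3 points of sox11b at day 2 lie below 0.

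The 2 paralogs sox11a and sox11b moved in opposite directions at day 2 when the change was averaged over the 3 regions, a comparison added after the data had been seen. The gene sox11a rose by 0.87 (SE 0.15, 1.83-fold, adjusted p = 9.0e-04), and its call held without any single array and under all 9 other settings. Its mean went from 4.55 to 6.19 in the parenchyma and from 8.19 to 8.94 in the medial zone. In the SVZ it went from 6.64 to 6.86, and the arrays overlapped. The gene sox11b fell by 0.91 (SE 0.24, 1.88-fold, adjusted p = 0.0294), and its call was lost without any 1 of 8 of the 17 arrays, with the fall then between 0.84 and 0.99 over all 17. Among all genes 2.73% rose and 1.17% fell in this comparison. With the array median subtracted the share of higher among called genes went from 69.9% to 47.6%. In the same comparison 23 of 24 microglia genes (median 1.79) and 15 of 20 cell cycle genes (median 0.81) were higher, and their part in the changes of sox11a and sox11b was not tested. The levels of sox11b on the unlesioned, day 2 and day 7 arrays were 8.01, 7.28 and 7.55, then 6.12, 6.70 and 5.84, then 6.47, 7.68 and 7.41 in the SVZ. In the medial zone they were 7.44 and 7.89, then 7.20, 6.86, 7.02 and 7.02, then 7.03, 7.38 and 7.56. In each of the 3 regions every day 2 array lay below every unlesioned array, a pattern shared by 0.452% of all genes, and the day 7 arrays overlapped both. Within the regions the day 2 differences were -0.70 in the parenchyma, -1.39 in the SVZ (SE 0.39, adjusted p = 0.223) and -0.64 in the medial zone.

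Over the regions tubb5 was also called at day 2, at 0.43 (SE 0.12, adjusted p = 0.0409). That call was lost without any 1 of 12 of the 17 arrays and under 5 of 10 other settings, and the SVZ difference had the opposite sign. The remaining 7 genes ranged from -0.06 for insm1b to 0.37 for ascl1a (95% interval 0.05 to 0.70, adjusted p = 0.236). At day 7 none of the 10 was called, against 0.0935% of all genes. The differences of sox11a (0.52, 95% interval 0.21 to 0.84) and tubb5 (0.44, 95% interval 0.19 to 0.70) were the only ones with an unadjusted p under 0.05, against 8.68% of all genes.

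Other genes of the same steps showed how far the pattern extended. Of 31 other proneural and neuronal commitment factors measured, 6 were higher and 2 lower in the unlesioned medial zone than in the parenchyma (median 0.14; 7.28% and 3.26% of all genes), and 6 were higher and 3 lower than in the SVZ (median 0.02; 2.37% and 1.79%). Among them myt1b, a zinc-finger factor of neuronal differentiation, was higher in the medial zone than in the parenchyma by 2.26 (SE 0.31, adjusted p = 2.2e-05), and ascl1b, the paralog of ascl1a, by 1.05 (SE 0.23, adjusted p = 0.00307). The pallial T-box gene eomesa was lower in the medial zone than in the SVZ (-2.55, SE 0.48, adjusted p = 0.00191). None of the 31 was called after the lesion in any single region. Averaged over the regions ascl1b rose by 0.47 (SE 0.11, adjusted p = 0.0168) at day 2.

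Of 10 other SoxB and SoxC factors, 5 were higher in the unlesioned SVZ than in the parenchyma (median 1.08, against 4.89% of all genes higher) and 7 in the medial zone (median 1.90, against 7.28%). The progenitor factors sox19b and sox19a led, at 3.24 (SE 0.28, adjusted p = 3.9e-08) and 2.22 (SE 0.23, adjusted p = 4.4e-07) in the SVZ. The 2 factors higher in the medial zone than in the SVZ by the most were sox1a (2.30, SE 0.44), the paralog of sox1b, and sox4b (1.27, SE 0.25), the paralog of sox4a. None of these 10 was called after the lesion in a single region.

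Of 36 other immature neuron genes measured, 11 were higher and 1 lower in the unlesioned medial zone than in the parenchyma (median 0.41), when 7.28% and 3.26% of all genes were, and 6 were higher and 1 lower in the SVZ (median 0.20), when 4.89% and 1.81% were. In the parenchyma 4 of the 36 rose at day 2 and 32 did not pass, with a median of 0.16, against 1.70% of all genes that rose. These were marcksa (1.11, SE 0.23, adjusted p = 0.00783) and marcksl1a (0.83, SE 0.18, adjusted p = 0.0114), which encode actin-binding substrates of protein kinase C, the microtubule regulator stmn1b (0.66, SE 0.15, adjusted p = 0.0203) and the alpha-tubulin gene tuba1b (1.45, SE 0.35, adjusted p = 0.0282). At day 7 marcksa was still higher in the parenchyma (2.61-fold, SE 0.23 on the log2 scale, adjusted p = 0.0149). None of the 36 was called in the SVZ or the medial zone after the lesion. The microglia list was higher on the same day 2 arrays, as given above, and its part in these rises was not tested. Of 23 mature neuron genes 6 were lower and 3 higher in the unlesioned medial zone than in the parenchyma, against 3.26% and 7.28% of all genes, and none was called after the lesion.

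Apart from neurog1, whose correlations with the others lay between -0.06 and 0.12, all pairs of the 10 genes had a positive correlation of levels, and a lower one within groups. The correlations of neurog1 were higher within groups with all other members but sox4a (0.07, then 0.03), as with ascl1a (0.11, then 0.52). Over the 45 pairs the median Pearson correlation of levels over the 26 arrays was 0.70, from -0.06 to 0.90 for ascl1a with sox11a. After the mean of each group had been subtracted the median was 0.11, from -0.56 to 0.76. The arrays fall into 9 groups in 3 regions, so these values describe the groups and are no test. Among the genes with a group mean above the table median, many of those most like the members over the 26 arrays were also regional. The gene most like neurog1, accs, was not. Its group means were 4.95 to 5.19 in the parenchyma, 5.08 to 5.20 in the SVZ and 5.06 to 5.11 in the medial zone. The progenitor factor sox19a was among the 3 most like ascl1a (0.95), gli3, a transcription factor of Hedgehog signalling, led for insm1b (0.96), and zfhx4, kita and lhx8a led for sox1b (all 0.92). The gene nanos1 was most like sox11a (0.95), followed by stmn1a (0.94), the Notch-regulated nrarpa most like tubb5 (0.95), and hapln1a and ncam1a most like insm1a (0.92 and 0.90). For sox4a the closest was sox1b (0.85), for elavl3 nop56 and kdm6bb (0.92), for sox11b mfsd2ab (0.84) and for neurog1 accs (0.65), the lowest of the 10. The 2 probe sets of tubb5 correlated at 0.96, and those of elavl3 at 0.94.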

How the data were processed

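The deposited values are log2 intensities of 75212 probe sets on 26 arrays, which the authors made with RMA in Affymetrix Expression Console 1.2, per the submitters' processing notes. RMA subtracts background, quantile-normalizes and summarises each probe set, so a change of the whole RNA pool is removed. The genome build and scan dates are not given in the sources used here. Of the probe sets, 20806 had 1 symbol in the platform annotation, 855 several and 53551 none, and 20323 were matched to a current gene list by Entrez identifier, which changed 1 symbol. For each of 19260 genes the brightest probe set on average was kept, and 1365 genes, tubb5 and elavl3 among them, had more than 1. limma 3.58.1 under R 4.3.3 estimated 9 group means from the 26 arrays together (lmFit, contrasts.fit, eBayes), for 18 comparisons and 6 added after seeing the data. P-values were adjusted by Benjamini-Hochberg over all genes. The procedure was tested on simulated data. The other versions were 3.11.15 for python, 2.3.3 for pandas, 2.4.6 for numpy and 3.10.9 for matplotlib. All 10 genes are named, and other lists are given by count, median and at most 4 genes of lowest adjusted p. For likeness, the 3 genes of highest correlation were taken among 14312. The members and lists were chosen with earlier results of these data known. Alternatives were array weights, a filter on low means (12840 genes left), array median subtraction, repeated quantile normalization, the replicate number as a block, a trended robust prior, every probe set, the other probe set, the compared groups alone, each array left out and, added later, the 2 arrays of lowest weight left out.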

Additional observations from a re-analysis of the deposited data

Results flagged for a closer look

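The lowest of the 4 medial zone arrays at day 2 gave neurog1 a level of 2.39 on the log2 scale, and the nearest other array was at 2.56. That gap is 0.95 of the group's range. The criterion used, Dixon's 95% critical value for the gap over the range, marks about 1 in 20 groups by chance, and neurog1 lies below the median intensity of the table. Some groups of 3 arrays, which were not flagged, also had 1 array far from the others. Among them were sox1b in the SVZ at day 2 (5.76, 6.67 and 6.67) and ascl1a in the parenchyma at day 2 (6.02, 5.02 and 5.04). The day 2 change of tubb5 differed between the 2 dorsal tissues by -1.97 (SVZ minus parenchyma, limma adjusted p = 0.0114), with changes of -0.47 and 1.51. Every SVZ array at day 2 lay below the unlesioned ones and every parenchyma array above them. By the other tubb5 probe set the difference was -1.72 and was not called, and the SVZ arrays at day 2 (9.53 to 9.85) overlapped the unlesioned ones (9.71 to 10.35).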

How the results depend on the processing

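The number of the 10 genes called in a comparison stayed within 1.5 times the reported one in all comparisons and settings except the following. With array weights the parenchyma at day 7 had 0 genes called instead of 1. With the other tubb5 probe set tubb5 was lost there and in the difference of the day 2 change between SVZ and parenchyma, so that each had 0 instead of 1. The unlesioned SVZ against parenchyma had 3 instead of 5 with array weights, with quantile normalization again and with the array median subtracted. The day 7 change in SVZ against parenchyma had 1, tubb5, instead of 0 with a trended robust prior. With the compared groups fitted alone, the parenchyma had 0 calls at day 2 and 0 at day 7. The difference of the day 2 change between SVZ and parenchyma then also had 0. Such a fit holds fewer arrays and takes its variance from the compared groups only. The cause was not tested for any of these settings. Leaving out 1 array gave 1 to 2 calls in the parenchyma at day 2, 0 to 1 at day 7, and 0 to 1 for day 7 against day 2. It gave 2 to 4 for the unlesioned SVZ against parenchyma, 6 to 7 for medial zone against parenchyma and 1 to 3 for medial zone against SVZ. For the difference of the change between SVZ and parenchyma it gave 0 to 1 at each day. Over all times it gave 5 to 7 for SVZ against parenchyma, 9 for medial zone against parenchyma and 6 to 7 for medial zone against SVZ. Averaged over regions it gave 1 to 3 at day 2 and 0 to 1 for day 7 against day 2. No called difference changed sign under any setting. Replicate numbers were not taken as pairing in the main fit. For same-numbered arrays the median correlation of deviations from group means was -0.02 within and -0.01 between regions. Of same-numbered pairs between regions 12 of 70 correlated above 0.1 (highest 0.24), against 5 of 155 pairs with different numbers (highest 0.16). Whether same-numbered arrays share fish or processing was not tested. With the replicate number as a block there were 2 calls in the parenchyma at day 2 and 4 in the unlesioned SVZ against parenchyma, where sox11b (1.41) was lost, and tubb5 averaged over regions at day 2 (0.45) was lost. The block changed no other call of these genes. With 2 to 4 arrays a group, changes as large as some of those named, and smaller ones, may have been missed. In the simulated data 200 of the 19260 genes were changed in each comparison, and the shares found depend on that number. For the 10 genes themselves the residual SD in the parenchyma ran from 0.19 for neurog1 to 0.80 for insm1a. Of simulated day 2 changes of 1 on the log2 scale, 49% were found in the parenchyma. The share was 60% in the SVZ and 53% in the medial zone. It was 21% for the difference of the day 2 change between SVZ and parenchyma. For changes of 2 the shares were 97%, 98%, 98% and 85% in the same order. False calls numbered 5, 6, 8 and 2 among 19260 genes. Counts of called genes over the whole array moved more, given here with their range over the settings other than left-out arrays. The parenchyma had 392 at day 2 (69 to 481), 24 at day 7 (1 to 38) and 221 between these days (39 to 241). The SVZ had 52 (31 to 85), 0 (0 to 2) and 10 (4 to 14), and the medial zone 95 (20 to 102), 0 (0 to 2) and 81 (6 to 124). The unlesioned medial zone against parenchyma had 2030 (943 to 3024). Over all times SVZ and medial zone against parenchyma had 3692 (3401 to 6530) and 6559 (5693 to 10114). The day 2 change differed for 10 genes (2 to 30) between SVZ and parenchyma and for 2 (0 to 43) between medial zone and parenchyma, and the mean day 7 change had 18 (6 to 29).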
